A study of Mus musculus with 8 samples.

Results

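Type I interferon-stimulated genes were examined in macrophages sorted from mouse tumors whose hosts differed in the autophagy gene Atg5. The 36 genes are antiviral effectors, RNA sensors and transcription factors of the interferon pathway, taken by name from a list, and all 36 were found among the 35275 genes of the deposited table. The rule that picks them is by name and uses no level or difference, although the list was drawn up with earlier results of these data known. The comparison asks whether their RNA differs between macrophages of mice with and without a Cre recombinase that acts on floxed Atg5 in myeloid cells.

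Type I interferons are secreted when sensors of foreign or misplaced nucleic acid are engaged. They bind the receptor made of Ifnar1 and Ifnar2, whose kinases activate Stat2. Stat2 and Irf9 act in a complex that binds interferon-stimulated response elements and switches on the genes described here. Tumor macrophages are among the cells that both make and answer interferon, and autophagy is known to degrade the DNA-sensing adaptor STING and damaged mitochondria.

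The 4 libraries labelled Atg5 KO came from Atg5flox/flox+LysMcre mice, and the 4 Atg5 WT libraries came from Atg5flox/flox mice without the Cre. All 8 mice were C57BL/6J females with both Atg5 alleles floxed, given 100000 cells of the mouse colon adenocarcinoma line MC38 under the skin at 6 to 8 weeks of age, with tumors collected on day 21. Sorted cells were CD11b+ F4/80+ Ly6G- Ly6C-, and each library came from a separate mouse, numbered 1 to 4 within its group. LysMcre sits in the Lyz2 gene, which monocytes, neutrophils and macrophages all use, so the deletion is not limited to tumor macrophages, and the share of cells in which it took place was not measured here.

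The Atg5 RNA went against the labels. Atg5 had 16.2, 13.8, 12.8 and 13.3 FPKM (fragment counts per unit of gene length and of library depth) in the KO-labelled mice 1 to 4, against 6.73, 3.50, 3.93 and 3.91 FPKM in Atg5 WT mice 1 to 4. Its log2 difference was 1.48 ± 0.17 (SE), with an adjusted p of 0.0987 in limma and 0.00481 once the mouse number is a block in the model. An FPKM over the whole gene does not show whether the floxed part was present, so the groups are called by their labels. Every difference below is KO-labelled minus Atg5 WT, so a positive value means higher in the KO-labelled libraries. Lyz2, the host gene of the Cre, averaged 3022 ± 311 FPKM in the KO-labelled libraries and 5249 ± 826 FPKM in Atg5 WT libraries (SD, n = 4 each). Fragments assigned to genes numbered between 14799546 and 25555195 per library, and a member gene had between 56 and 7840 of them in a library. Csf1r, the receptor for the main macrophage growth factor, had between 347 and 393 FPKM in every library, and Ly6g was listed at 0 in all but 1 library. Ly6c2, which encodes a form of the Ly6C that the sort gated out, had 2.09 to 14.9 FPKM, with the highest value in KO-labelled mouse 1. The mouse 1 library of each group stood apart from the other 6: both had values above those of all other libraries for 29.8% of the 11019 genes tested, and below them for 14.7%.

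Many interferon-induced genes carry response elements close to their start, so 5 promoters are shown before the values, 1 each from the ISG15, viperin and OAS genes and both IFIT genes with matches. The sequences are 250 bases before the transcript start from RefSeq on GRCm38.p6, the assembly called mm10, printed 5′ to 3′ on the strand of the gene. Capitals mark matches to GAAA, any 2 bases and again GAAA (TTTC, any 2 bases and TTTC on the other strand), the core of the interferon-stimulated response element, and overlapping matches are joined.
Isg15 (chr4:156200819-156201068, minus strand): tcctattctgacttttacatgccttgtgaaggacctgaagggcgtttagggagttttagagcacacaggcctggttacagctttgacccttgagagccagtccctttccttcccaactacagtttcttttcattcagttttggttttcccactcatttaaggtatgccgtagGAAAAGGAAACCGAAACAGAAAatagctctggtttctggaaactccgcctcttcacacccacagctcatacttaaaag
Ifit1 (chr19:34640639-34640888, plus strand): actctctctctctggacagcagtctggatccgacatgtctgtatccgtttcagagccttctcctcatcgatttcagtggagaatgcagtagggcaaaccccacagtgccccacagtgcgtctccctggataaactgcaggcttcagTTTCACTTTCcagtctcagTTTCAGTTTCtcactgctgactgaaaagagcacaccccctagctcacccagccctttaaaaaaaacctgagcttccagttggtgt
Ifit3 (chr19:34583279-34583528, plus strand): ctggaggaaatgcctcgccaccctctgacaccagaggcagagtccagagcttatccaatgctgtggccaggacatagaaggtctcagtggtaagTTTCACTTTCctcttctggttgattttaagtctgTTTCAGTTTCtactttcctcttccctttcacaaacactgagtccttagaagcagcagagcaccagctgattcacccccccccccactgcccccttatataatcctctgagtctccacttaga
Rsad2 (chr12:26456453-26456702, minus strand): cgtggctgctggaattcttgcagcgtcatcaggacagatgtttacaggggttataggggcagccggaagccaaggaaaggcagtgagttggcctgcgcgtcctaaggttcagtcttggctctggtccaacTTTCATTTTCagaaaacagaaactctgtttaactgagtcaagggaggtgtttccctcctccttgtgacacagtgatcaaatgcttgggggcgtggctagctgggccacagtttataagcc
Oas3 (chr5:120777660-120777909, minus strand): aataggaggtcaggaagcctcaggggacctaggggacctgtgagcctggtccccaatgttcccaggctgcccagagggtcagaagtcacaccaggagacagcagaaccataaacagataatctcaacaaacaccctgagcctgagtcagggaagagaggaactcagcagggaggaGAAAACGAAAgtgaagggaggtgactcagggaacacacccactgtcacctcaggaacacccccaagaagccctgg
In windows of 250 bases before to 50 after a start, 13 of the 28 members with a RefSeq window (46.4%) held at least 1 match, against 1074 of 26994 genes with a window (3.98%). Per window, 14 of 36 member windows (38.9%) and 1126 of 32817 windows of all genes (3.43%) held a match. The other members with a match were Stat2, Ddx58, Ifih1, Eif2ak2, Oas1a, Ifitm3, Bst2 and Trim30a. Dhx58, Zbp1, Oas2, Usp18, Mx1, Mx2, Rtp4 and Parp14 had no window in the table used. A match is a run of letters, and no binding was measured.

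All 36 genes were expressed at levels that could be tested. Their mean over the 8 libraries ranged from 1.43 FPKM for Ifi44 to 334.6 FPKM for Ifitm3, and 34 of 36 averaged at least 5 FPKM. On this per-length scale Ifitm3 came first, followed by Bst2 at 161.4, Trim25 at 55.2, Isg15 at 46.0 and Irf7 at 44.7 FPKM. Ifitm3 stood above 98.3% of all genes tested. Along the order of levels, 5 of the 35 neighbouring pairs were apart by more than their summed SDs over the 8 libraries. These were Ifitm3 and Bst2, Bst2 and Trim25, Oas1a and Stat2, Isg20 and Mx2, and Mx2 and Ifi44. The other 30 neighbouring pairs were not, although genes further apart in the order can be.

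**Figure D1:**
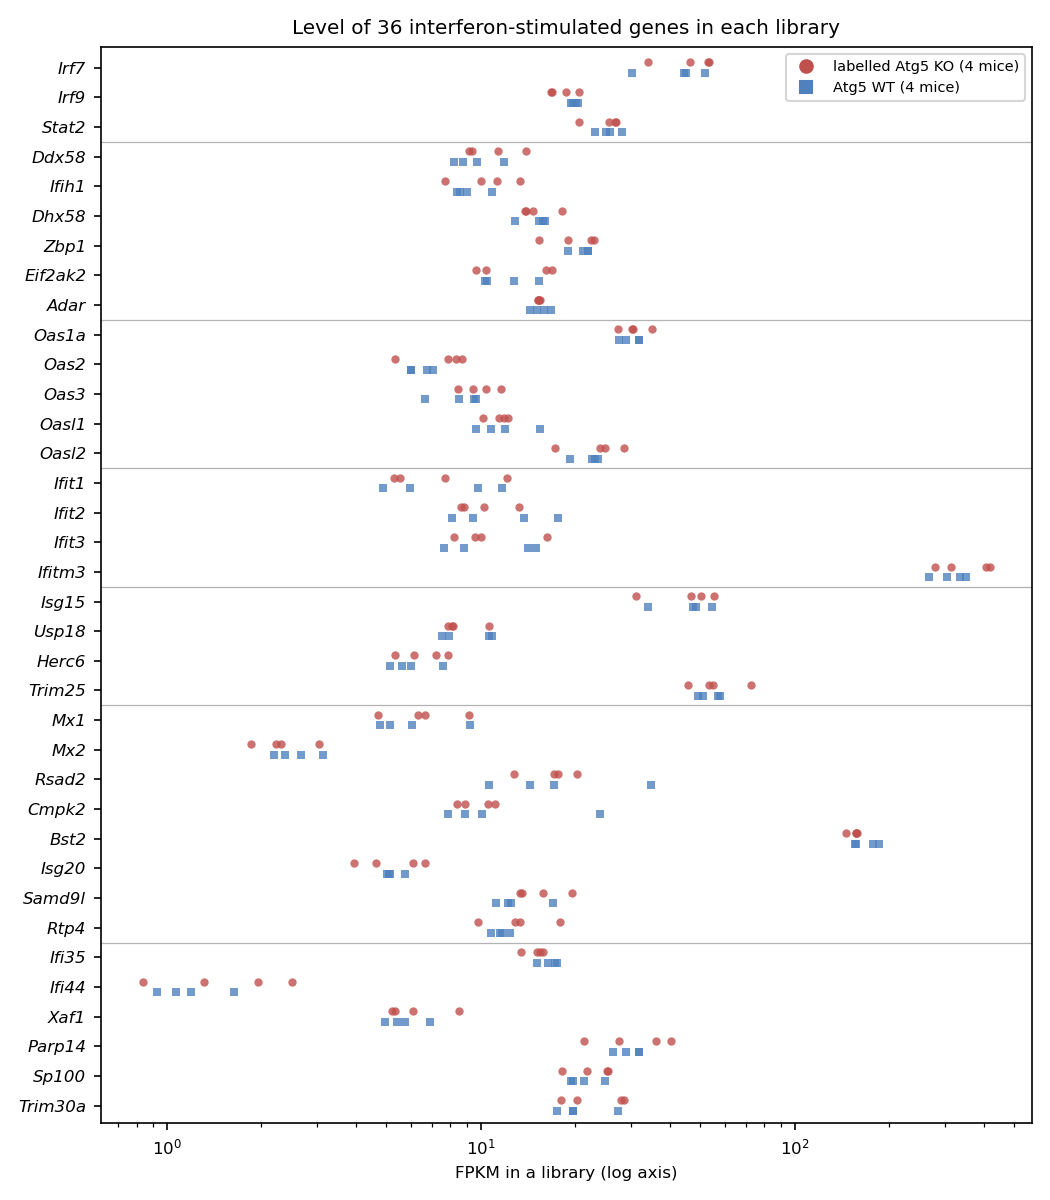
Level of each of the 36 genes in FPKM (log axis) in each library, with KO-labelled libraries as circles above Atg5 WT libraries as squares, and lines between roles. Points of both groups overlap for every gene, and the mean levels run from 1.43 FPKM for Ifi44 to 334.6 FPKM for Ifitm3.

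For no member was the difference between the groups larger than the spread of the libraries allows by the test used. At an adjusted p under 0.05 in limma, 0 of 36 members and 0% of all genes passed. At an unadjusted p under 0.05, 0 of 36 members were higher in the KO-labelled libraries, where 1.20% of all genes were, and 0 of 36 were lower, where 0.826% of all genes were. For each of the 36 genes the values of the groups overlapped, while 1.15% of all genes had every KO-labelled library above every Atg5 WT library and 0.590% had every one below. A positive difference was found for 21 of 36 members (58.5% of all genes), and the median log2 difference was 0.03 over the members, as it was over all genes. In bulk RNA of this kind, fewer cells of a type and less RNA per cell cannot be told apart.

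The intervals say how large a difference the data leave room for. On the log2(FPKM + 1) scale the members' differences ran from -0.23 for Cmpk2 to 0.23 for Ifi44, and the median SE was 0.15. The 95% interval of the difference lay between -1 and 1 for 36 of 36 members (96.1% of all genes). It lay within the log2 of 1.5 on either side of 0 for 30 of 36 (75.2% of all genes). The 6 exceptions were Ifit1, Ifit2, Ifit3, Rsad2, Cmpk2 and Ifi44. The added 1 FPKM narrows these intervals for low genes. With an added 0.1 FPKM in its place, 35 of 36 intervals lay between -1 and 1 and 27 within the narrower band, and with voom on the recovered fragments 35 and 25 did. The member outside -1 to 1 in both was Ifi44, whose interval then ran from -0.42 to 1.10 and from -0.40 to 1.15, so a 2-fold difference is within the range for this gene. On the log2(FPKM + 1) scale the lowest bound was -0.88, for Cmpk2, and the highest was 0.70, for Ifi44.

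**Figure D2:**
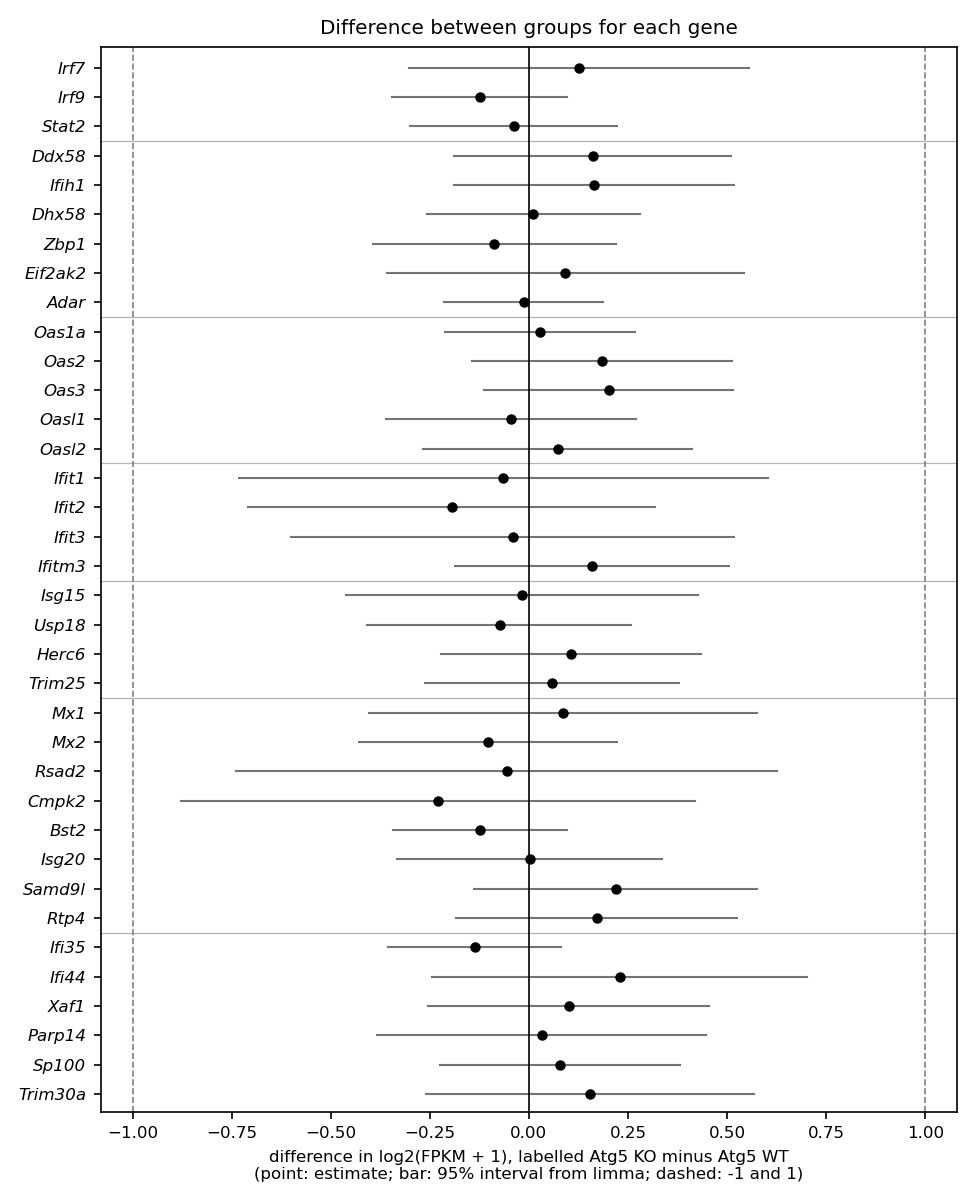
Log2 difference of each member, KO-labelled minus Atg5 WT, on the log2(FPKM + 1) scale, with its 95% interval from limma as a bar and dashed lines at -1 and 1. All 36 intervals include 0 and stay between -0.88 and 0.70.

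Among the transcription factors, Irf7 amplifies the response because interferon induces it, and it then drives further interferon genes. Irf7 had 46.4, 53.1, 53.2 and 34.1 FPKM in the KO-labelled mice 1 to 4, against 30.3, 44.9, 51.6 and 44.4 FPKM in Atg5 WT mice 1 to 4. The lowest value was that of Atg5 WT mouse 1 and the groups overlapped, with a log2 difference of 0.13 ± 0.19 (SE, limma adjusted p = 0.999). Irf9, the DNA-binding part of the interferon-activated complex, had 20.6, 18.6, 16.8 and 16.8 FPKM in the KO-labelled libraries and 20.4, 20.1, 19.6 and 19.3 FPKM in Atg5 WT libraries. The KO-labelled mice 2 to 4 were below all 4 Atg5 WT mice, but KO-labelled mouse 1 was above them, so the groups overlapped, with a difference of -0.12 and a 95% interval of -0.34 to 0.10. Stat2, the partner of Irf9 in that complex, lay between 20.5 and 26.9 FPKM in the KO-labelled libraries and between 23.2 and 28.1 FPKM in Atg5 WT libraries.

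Of the RNA sensors, Ddx58 (RIG-I) and Ifih1 (MDA5) detect viral RNA in the cytoplasm and signal through Mavs. Ddx58 had 13.9, 11.3, 9.19 and 9.34 FPKM in the KO-labelled libraries, against 11.9, 9.71, 8.22 and 8.76 FPKM in Atg5 WT libraries. Ifih1 had 13.4, 11.2, 9.97 and 7.71 FPKM in the KO-labelled libraries and 10.8, 9.01, 8.55 and 8.41 FPKM in Atg5 WT libraries. For both genes KO-labelled mouse 1 was the highest library of all, and the differences were 0.16 each, with intervals of -0.19 to 0.51 for Ddx58 and -0.19 to 0.52 for Ifih1. Zbp1, which senses nucleic acid in the Z conformation and can trigger necroptosis, had 23.0, 19.0, 22.4 and 15.3 FPKM in the KO-labelled libraries, against 21.9, 21.2, 19.0 and 22.0 FPKM in Atg5 WT libraries. The KO-labelled values of Zbp1 spread around those of Atg5 WT, with the lowest in KO-labelled mouse 4. Dhx58 (LGP2), which tunes both sensors, averaged 15.1 ± 2.07 FPKM in the KO-labelled libraries and 15.0 ± 1.43 FPKM in Atg5 WT libraries (SD, n = 4 each). Eif2ak2 (PKR), the kinase that halts translation on binding double-stranded RNA, averaged 13.3 ± 3.75 FPKM in the KO-labelled libraries and 12.2 ± 2.35 FPKM in Atg5 WT libraries. Adar, which edits double-stranded RNA and so keeps the cell's own RNA from being sensed, was the steadiest member, with 15.2 to 15.4 FPKM in the KO-labelled libraries and 14.3 to 16.7 FPKM in Atg5 WT libraries. The exons of Adar overlap those of Chrnb2 on the opposite strand.

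The OAS proteins are enzymes that make oligoadenylates in answer to double-stranded RNA and so activate RNase L, while Oasl1 and Oasl2 are their OAS-like relatives. Oas3 had 9.41, 10.4, 11.6 and 8.45 FPKM in the KO-labelled libraries, against 6.62, 9.48, 8.50 and 9.63 FPKM in Atg5 WT libraries. Oas3 had the smallest unadjusted p of all members, 0.183 in limma, with a difference of 0.20 ± 0.14, and the KO-labelled mouse 4 lay below 3 of the Atg5 WT libraries. Oas2 had 8.68, 7.84, 8.33 and 5.31 FPKM in the KO-labelled libraries and 6.00, 7.02, 6.72 and 5.97 FPKM in Atg5 WT libraries. For Oas2 the KO-labelled mice 1 to 3 were above every Atg5 WT library and KO-labelled mouse 4 was below them all. Its difference was 0.18, with an interval of -0.14 to 0.51. Left without KO-labelled mouse 4, Oas2 reached an unadjusted p of 0.0173, with an adjusted p of at least 0.940 for every member in that fit. Oas1a, whose reads may be shared with the near-identical Oas1g, had 35.0, 30.4, 30.3 and 27.3 FPKM in the KO-labelled libraries and 27.5, 32.0, 31.9 and 29.0 FPKM in Atg5 WT libraries. Its groups overlapped throughout. Oasl1, known in mouse as a brake on Irf7 translation, averaged 11.4 ± 0.878 FPKM in the KO-labelled libraries and 11.9 ± 2.49 FPKM in Atg5 WT libraries. Oasl2 averaged 23.6 ± 4.71 FPKM in the KO-labelled libraries and 22.1 ± 1.97 FPKM in Atg5 WT libraries.

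The IFIT proteins bind foreign RNA and block its translation, and Ifitm3 sits in endosomal membranes and hinders the entry of viruses. Ifitm3 had 314, 417, 407 and 280 FPKM in the KO-labelled libraries, against 267, 305, 351 and 336 FPKM in Atg5 WT libraries. The mice 2 and 3 labelled KO were the highest of all and KO-labelled mouse 4 was below 3 of the Atg5 WT libraries, for a difference of 0.16 ± 0.15. Ifit2 had 13.2, 8.83, 8.61 and 10.2 FPKM in the KO-labelled libraries and 13.7, 17.6, 9.41 and 8.09 FPKM in Atg5 WT libraries. The Atg5 WT libraries held both the highest and the lowest value of Ifit2, and the difference was -0.19 with an interval of -0.71 to 0.32. Ifit1 and Ifit3 were as uneven within each group. Ifit1 lay between 5.27 and 12.1 FPKM in the KO-labelled libraries and between 4.86 and 11.7 FPKM in Atg5 WT libraries. Ifit3, whose reads may be shared with its copy Ifit3b, lay between 8.19 and 16.2 FPKM in the KO-labelled libraries and between 7.63 and 14.9 FPKM in Atg5 WT libraries.

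Isg15 encodes a ubiquitin-like protein that is attached to other proteins, Herc6 is the main ligase that attaches it in mouse, and Usp18 removes it and also damps signalling at the receptor. Isg15 had 55.4, 50.4, 46.6 and 31.3 FPKM in the KO-labelled libraries, against 54.6, 48.5, 47.3 and 34.1 FPKM in Atg5 WT libraries. Same-numbered libraries lay close together for Isg15, with mouse 1 highest and mouse 4 lowest in each group, and the difference was -0.02 ± 0.20. Usp18 had 10.6, 8.11, 8.12 and 7.84 FPKM in the KO-labelled libraries and 10.6, 10.9, 7.94 and 7.52 FPKM in Atg5 WT libraries. The high values of Usp18 were those of both mice 1 and of Atg5 WT mouse 2. Herc6 had 7.22, 7.84, 6.13 and 5.32 FPKM in the KO-labelled libraries, against 7.58, 6.01, 5.62 and 5.12 FPKM in Atg5 WT libraries, and its groups overlapped. Part of the Herc6 exons is shared with a transcript annotated on the same strand. Trim25, a ubiquitin ligase that acts with RIG-I, had 54.9, 72.5, 53.4 and 45.6 FPKM in the KO-labelled libraries and 49.2, 56.9, 57.8 and 51.0 FPKM in Atg5 WT libraries. KO-labelled mouse 2 was the highest and KO-labelled mouse 4 the lowest library for Trim25.

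Among the antiviral GTPases and other effectors, Bst2 (tetherin) holds budding virus particles at the cell surface. Bst2 had 157, 145, 158 and 157 FPKM in the KO-labelled libraries, against 156, 178, 185 and 156 FPKM in Atg5 WT libraries. The KO-labelled values were close to those of Atg5 WT mice 1 and 4, and Atg5 WT mice 2 and 3 were higher, for a difference of -0.12 with an interval of -0.34 to 0.10. Samd9l, which restricts poxviruses and slows translation, had 19.4, 15.8, 13.5 and 13.4 FPKM in the KO-labelled libraries and 17.0, 12.5, 11.1 and 12.2 FPKM in Atg5 WT libraries. Each KO-labelled library of Samd9l was above the Atg5 WT library of the same number, while the groups as a whole overlapped. Its difference was 0.22 ± 0.16, with an unadjusted p of 0.199 in limma. Once mouse number is a block in the model, the unadjusted p of Samd9l was 0.0245 and its adjusted p 0.564, and it was then 1 of 36 members called higher at an unadjusted p under 0.05 (5.19% of all genes), with 0 of 36 called lower (3.62% of all genes). The other members of this group also overlapped. Mx2 averaged 2.36 ± 0.510 FPKM in the KO-labelled libraries and 2.59 ± 0.412 FPKM in Atg5 WT libraries. Isg20, an RNA exonuclease, averaged 5.33 ± 1.27 FPKM in the KO-labelled libraries and 5.23 ± 0.328 FPKM in Atg5 WT libraries. Rtp4, a membrane-bound interferon-induced protein, averaged 13.4 ± 3.33 FPKM in the KO-labelled libraries and 11.6 ± 0.649 FPKM in Atg5 WT libraries.

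Of the other induced genes, Ifi35 encodes a cytoplasmic protein that partners with Nmi. Ifi35 had 15.7, 15.1, 15.5 and 13.4 FPKM in the KO-labelled libraries, against 15.1, 17.5, 16.3 and 17.2 FPKM in Atg5 WT libraries. Atg5 WT mice 2 to 4 were above every KO-labelled library, and Atg5 WT mouse 1 was not, so that the groups overlapped. The difference of Ifi35 was -0.14, with an interval of -0.36 to 0.08. Ifi44, the lowest member, had 2.51, 1.95, 1.31 and 0.84 FPKM in the KO-labelled libraries, against 1.64, 1.07, 1.19 and 0.93 FPKM in Atg5 WT libraries. The KO-labelled libraries held both its highest and its lowest value. Parp14, an ADP-ribosyltransferase, had 36, 40.3, 27.5 and 21.3 FPKM in the KO-labelled libraries and 32.0, 31.9, 28.9 and 26.4 FPKM in Atg5 WT libraries. The mice 1 and 2 labelled KO were the highest, and the mouse 4 labelled KO was the lowest. Xaf1, which binds the apoptosis inhibitor XIAP, Sp100, a component of PML nuclear bodies, and Trim30a, a ubiquitin ligase that restrains Toll-like receptor signalling in mouse, had differences of 0.10, 0.08 and 0.15, each with an interval that includes 0. Trim30a belongs to a family of close copies, and its reads may be shared among them.

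Libraries of the same group varied among themselves. The median within-group SD of log2(FPKM + 1) was 0.23 over the members and 0.22 over all genes, and it ran from 0.06 for Adar to 0.52 for Rsad2. KO-labelled mouse 1 was the highest of the 8 libraries for 18 of 36 members (24.6% of all genes), and KO-labelled mouse 4 was the lowest for 15 of 36 (8.99% of all genes). Atg5 WT mouse 2 was the highest for 10 of 36 members, where it was the highest for 3.76% of all genes. Atg5 WT mouse 1 was the highest for 0 of 36, where it was the highest for 20.5% of all genes. Of the other libraries, KO-labelled mouse 2 was the highest for 4 members (12.8% of all genes), KO-labelled mouse 3 for 3 (6.47%), KO-labelled mouse 4 for 0 (12.8%), Atg5 WT mouse 3 for 1 (6.33%) and Atg5 WT mouse 4 for 0 (12.7%). The lowest value lay in KO-labelled mouse 1 for 0 of 36 members (9.75% of all genes), in KO-labelled mouse 2 for 3 (18.9%) and in KO-labelled mouse 3 for 1 (9.19%). In the Atg5 WT group it lay in mouse 1 for 6 members (16.1% of all genes), in mouse 2 for 0 (11.1%), in mouse 3 for 3 (10.6%) and in mouse 4 for 8 (15.4%). The mean log2(FPKM + 1) of the 36 genes was 4.27, 4.09, 4.02 and 3.82 in the KO-labelled mice 1 to 4, against 4.07, 4.19, 3.95 and 3.88 in Atg5 WT mice 1 to 4. On average this was 4.05 ± 0.19 in the KO-labelled libraries and 4.02 ± 0.13 in Atg5 WT libraries (SD, n = 4 each), so the group means differed by less than the SD of either group. The libraries that carry the extremes also moved the members' median difference, which was -0.03 without KO-labelled mouse 1, 0.13 without KO-labelled mouse 4 and 0.10 without Atg5 WT mouse 2.

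**Figure D3:**
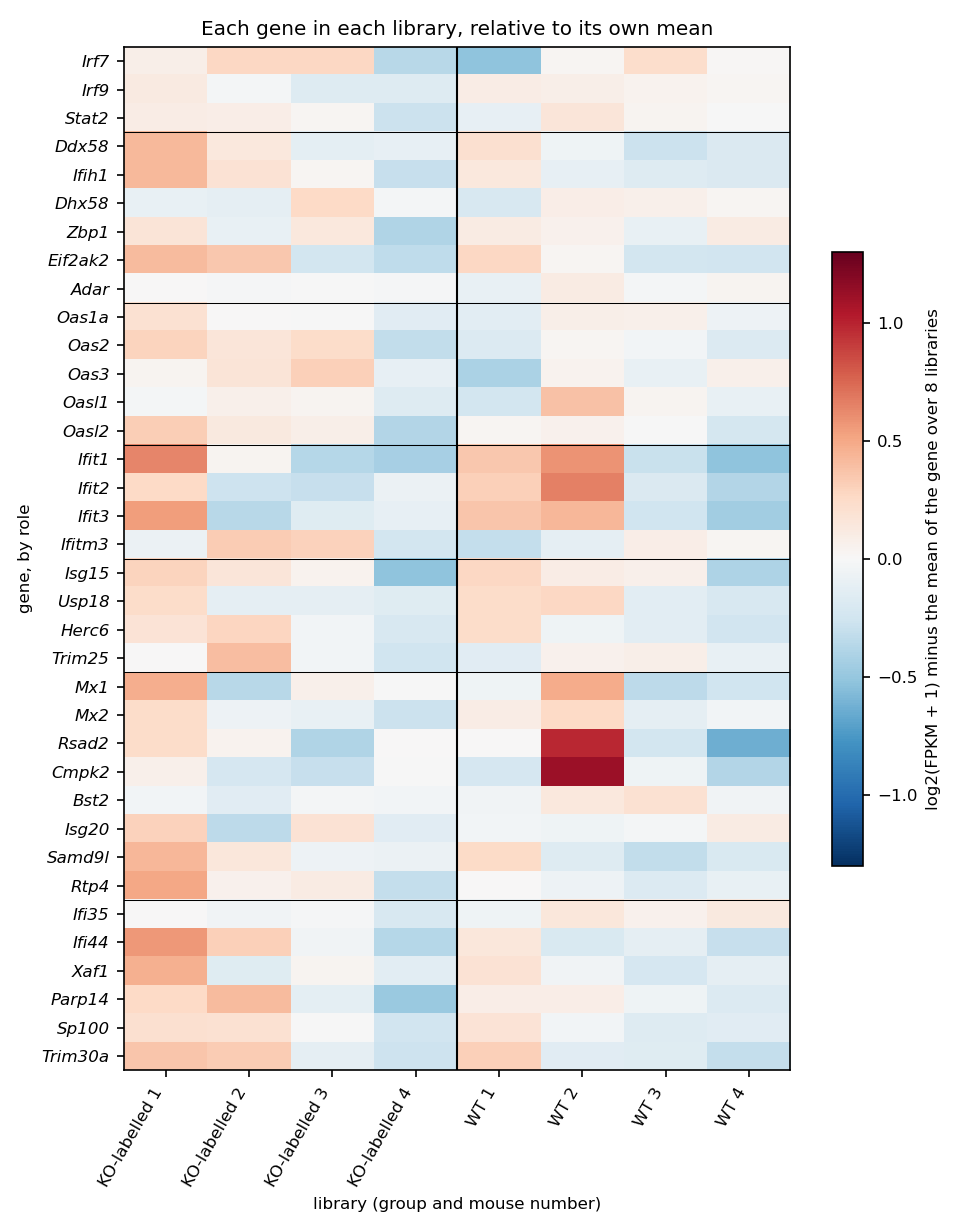
Deviation of each member from its mean over the 8 libraries, on the log2(FPKM + 1) scale, with KO-labelled libraries in the left columns and Atg5 WT libraries in the right ones. KO-labelled mouse 1 and Atg5 WT mouse 2 hold most of the high values, and KO-labelled mouse 4 holds many of the low ones.

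The high values of Atg5 WT mouse 2 were concentrated in a few antiviral effectors, which are named here after their values were seen. Rsad2, which encodes the antiviral enzyme viperin, had 20.3, 17.6, 12.8 and 17.1 FPKM in the KO-labelled libraries, against 17.1, 34.7, 14.3 and 10.6 FPKM in Atg5 WT libraries. Cmpk2, a mitochondrial nucleotide kinase, had 11.1, 8.88, 8.40 and 10.5 FPKM in the KO-labelled libraries and 8.91, 23.9, 10.1 and 7.88 FPKM in Atg5 WT libraries. Mx1, a GTPase whose allele in common laboratory strains lacks part of its coding sequence, had 9.18, 4.71, 6.66 and 6.29 FPKM in the KO-labelled libraries and 6.04, 9.26, 4.77 and 5.13 FPKM in Atg5 WT libraries. Atg5 WT mouse 2 was above the next Atg5 WT library by a ratio of 2.37 for Cmpk2, 2.02 for Rsad2 and 1.53 for Mx1. Rsad2 (chr12:26442753-26456452, minus strand) and Cmpk2 (chr12:26469204-26479835, plus strand) are neighbours that start back to back on mm10, and the Rsad2 promoter printed above lies between them. The other members highest in that library were Stat2, Adar, Oasl1, Ifit2, Usp18, Mx2 and Ifi35.

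**Figure D4:**
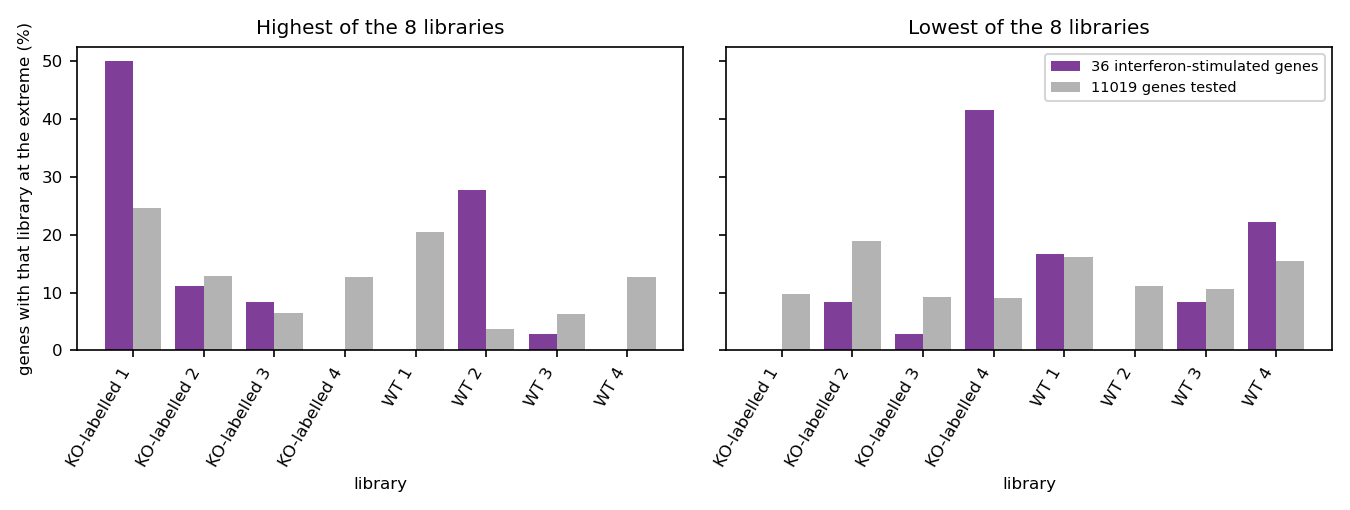
Share of the 36 members and share of all genes tested, in percent, that have their highest value (left panel) or their lowest value (right panel) in each library. KO-labelled mouse 1 and Atg5 WT mouse 2 stand out as highest, with 18 and 10 members, and KO-labelled mouse 4 as lowest, with 15.

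The mouse 1 libraries, which stand apart across all genes, did not do so for most members. Both were above the other 6 libraries for 5 of 36 members, Irf9, Ddx58, Isg15, Samd9l and Xaf1 (29.8% of all genes), and below them for 0 of 36 (14.7% of all genes). Among the interferon-gamma-induced GBP and IRG GTPases, large and small GTPases that attack the vacuoles of intracellular microbes, both mouse 1 libraries were above the other 6 for 14 of the 17 tested. Without both mouse 1 libraries the median difference of the 36 genes was -0.03, and no member had an unadjusted p under 0.05 in limma.

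The ligands themselves were at the edge of detection. Ifnb1, which encodes interferon beta, had 1.10, 0.25, 0.56 and 0.60 FPKM in the KO-labelled libraries, against 0.49, 1.15, 0.48 and 0.27 FPKM in Atg5 WT libraries. These values rest on 21, 3, 7 and 8 fragments in the KO-labelled libraries and on 8, 16, 7 and 3 fragments in Atg5 WT libraries, or 39 and 34 in all. The highest Ifnb1 values were those of KO-labelled mouse 1 and Atg5 WT mouse 2, the libraries that were also highest for the most members, an observation made after the values were seen and not tested. The 13 Ifna genes had 12 fragments in all KO-labelled libraries together and 11 in all Atg5 WT libraries, and 6 of them had none in any library. None of the 18 type I interferon ligand genes reached the mean of 1 FPKM needed for testing.

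**Figure D5:**
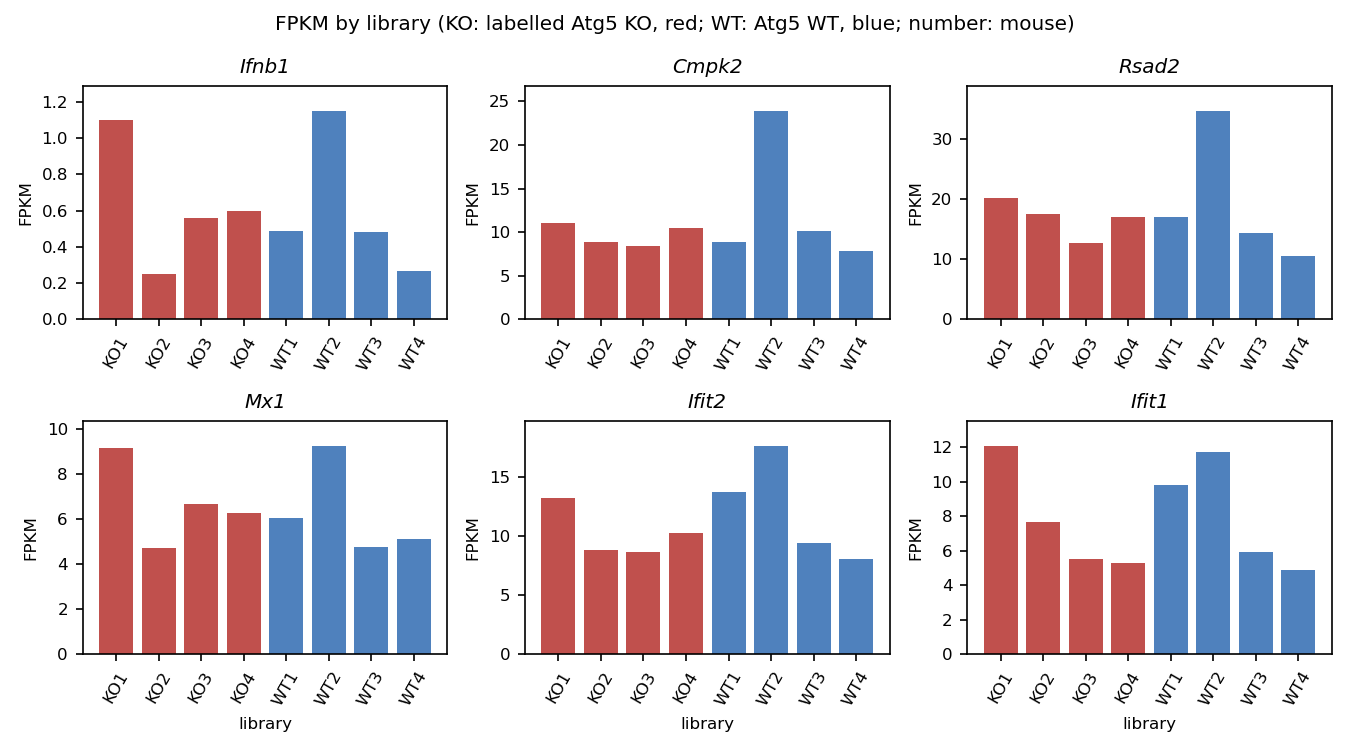
Level of Ifnb1, Cmpk2, Rsad2, Mx1, Ifit2 and Ifit1 in FPKM, 1 bar per library, with KO-labelled libraries in red and Atg5 WT libraries in blue. Ifnb1 reached 1.10 FPKM in KO-labelled mouse 1 and 1.15 FPKM in Atg5 WT mouse 2, and Atg5 WT mouse 2 has the highest bar for Cmpk2, Rsad2, Mx1 and Ifit2.

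Genes upstream and downstream were counted in the same way, from lists chosen with earlier results known. Of 10 receptor and signalling genes, none reached an unadjusted p of 0.05 in limma in either direction (0 higher, where 1.20% of all genes were, and 0 lower, where 0.826% were), with a median difference of -0.02. Socs1, which inhibits the receptor's kinases, had 28.8, 42.8, 56.3 and 32.6 FPKM in the KO-labelled libraries, against 34.5, 56.5, 67.3 and 63.3 FPKM in Atg5 WT libraries. Each KO-labelled library of Socs1 was below the Atg5 WT library of the same number, for a difference of -0.46 ± 0.25 (limma unadjusted p = 0.101, adjusted p = 0.999). In the limma fit with the block Socs1 had an unadjusted p of 0.00531 and an adjusted p of 0.473. It was the 1 of the 10 called lower in that fit (3.62% of all genes), with 0 called higher (5.19% of all genes). The receptor chains Ifnar1 and Ifnar2 differed by 0.11 and -0.13, and the phosphatase gene Ptpn11 by 0.08. Of 16 tested genes that sense nucleic acid upstream or relay that signal, 0 were higher and 1 was lower at that threshold, with a median of -0.12. The lower one was Tmem173 (STING), the adaptor for cytoplasmic DNA sensing, with 49.4, 39.6, 53.6 and 49.6 FPKM in the KO-labelled libraries and 60.1, 56.9, 53.1 and 60.4 FPKM in Atg5 WT libraries. Its unadjusted p was 0.0449 in limma and its adjusted p 0.999, for a difference of -0.26 ± 0.11. Next by p were Ikbke at 0.26, the RNA-sensing adaptor Mavs at -0.20 and the endosomal RNA receptor Tlr7 at 0.31. In the limma fit with the block 2 of the 16 passed that threshold as higher (5.19% of all genes). They were Ikbke with an unadjusted p of 0.0191 and Tlr7 with one of 0.0220. In that limma fit 1 of the 16 was lower (3.62% of all genes), Tmem173, with an unadjusted p of 0.0265. The limma adjusted p of Ikbke, Tlr7 and Tmem173 was 0.564 each. A positive difference was found for 4 of these 16 genes and for 4 of the 10 receptor and signalling genes (58.5% of all genes).

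A wider set of 51 tested interferon-stimulated genes outside the 36 had 3 with a higher level at that unadjusted threshold (1.20% of all genes) and 0 with a lower one (0.826% of all genes), 0 of them past adjustment, with a median difference of 0.04. In the fit with the block 7 were higher (5.19% of all genes) and 0 lower (3.62% of all genes), again with 0 past adjustment. Groups did not overlap for 2 of the 51 in the higher direction (1.15% of all genes), Slfn4 and Slfn1, and for 1 in the lower direction (0.590% of all genes), Tor3a. Slfn4, a Schlafen gene of myeloid cells, had 19.9, 12.1, 5.78 and 6.10 FPKM in the KO-labelled libraries, against 5.23, 5.52, 4.55 and 4.38 FPKM in Atg5 WT libraries. All 4 KO-labelled values of Slfn4 were above all 4 Atg5 WT values, most of all in mice 1 and 2, for a difference of 0.86 ± 0.32 (limma unadjusted p = 0.0249, adjusted p = 0.999). Slfn1, a Schlafen gene named for slowing the growth of T cells, had 15.1, 12.3, 15.3 and 11.9 FPKM in the KO-labelled libraries and 11.7, 10.7, 10.2 and 10.04 FPKM in Atg5 WT libraries. The groups of Slfn1 did not overlap, and its difference was 0.32 ± 0.11 (limma unadjusted p = 0.0181, adjusted p = 0.999). Ifitm6, a relative of Ifitm3, averaged 2.49 ± 1.02 FPKM in the KO-labelled libraries and 1.43 ± 0.288 FPKM in Atg5 WT libraries, on 11 to 33 fragments per library. Tor3a, an interferon-induced ATPase of the torsin family, had 17.6, 16.5, 18.9 and 17.8 FPKM in the KO-labelled libraries, against 19.1, 20.9, 19.3 and 19.9 FPKM in Atg5 WT libraries, for a difference of -0.15 ± 0.09 (limma unadjusted p = 0.123, adjusted p = 0.999). Oas1g, the close copy of Oas1a, differed by 0.18 ± 0.10. Of the 17 tested GBP and IRG GTPases, 0 were higher and 0 lower, with a median of -0.02. The 4 with the smallest p were Ifi47 at -0.14, Gm12250 at -0.13, Gbp9 at 0.09 and Gbp3 at -0.09.

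Markers of other cell types varied among the same libraries, and their part in the values above was not tested. The summed level of 10 monocyte markers was 217 to 339 FPKM in the KO-labelled libraries and 176 to 267 FPKM in Atg5 WT libraries, highest in KO-labelled mouse 1. The sum of 10 fibroblast markers was 32.1 to 219 FPKM in the KO-labelled libraries and 19.3 to 111 FPKM in Atg5 WT libraries, with the highest value of each group in mouse 1. The sum of 10 neutrophil markers was 74.3 to 156 FPKM in the KO-labelled libraries and 43.3 to 100 FPKM in Atg5 WT libraries, while Ly6g was at or near 0. Most of that sum was Retnlg and Mmp9. Retnlg had 29.7 to 42.8 FPKM in the KO-labelled libraries and 17.8 to 44.6 FPKM in Atg5 WT libraries. Mmp9 had 8.59 to 81.9 FPKM in the KO-labelled libraries and 6.71 to 43.4 FPKM in Atg5 WT libraries. Cxcr2, Camp and Ltf stayed under 1 FPKM in every library. Plasmacytoid dendritic cells are a main source of interferon alpha in blood and lymphoid organs. Their defining marker Siglech had at most 0.10 FPKM in any library. The sum of 10 markers of that type was 59.3 to 77.8 FPKM in the KO-labelled libraries and 57.3 to 85.0 FPKM in Atg5 WT libraries. Most of that sum was Lair1, at 39.3 to 53.7 FPKM in the KO-labelled libraries and 38.0 to 60.6 FPKM in Atg5 WT libraries. Tcf4 came next, at 10.7 to 15.5 FPKM in the KO-labelled libraries and 10.8 to 16.6 FPKM in Atg5 WT libraries. For lymphocytes the 10 markers summed to 2.42 to 4.07 FPKM in the KO-labelled libraries and 4.13 to 7.09 FPKM in Atg5 WT libraries, without overlap. Cd2, the 1 lymphocyte marker tested, had 1.18 to 1.86 FPKM in the KO-labelled libraries and 2.40 to 3.99 FPKM in Atg5 WT libraries. Its difference was -0.68 ± 0.15 (limma unadjusted p = 0.00138, adjusted p = 0.999). The 10 conventional dendritic cell markers summed to 35.6 to 54.9 FPKM in the KO-labelled libraries and 45.5 to 74.6 FPKM in Atg5 WT libraries. Most of that sum was Clec10a, Ccr7 and Batf3, while Flt3, Zbtb46 and Xcr1 stayed under 1 FPKM in every library. For the tumor's epithelial cells, 8 markers summed to 36.4 to 70.5 FPKM in the KO-labelled libraries and 44.1 to 75.7 FPKM in Atg5 WT libraries. Nearly all of that sum was Cdh1, at 34.7 to 68.2 FPKM in the KO-labelled libraries and 42.6 to 71.9 FPKM in Atg5 WT libraries, while Epcam had at most 1.82 FPKM in any library, Krt8 at most 0.09 FPKM and Krt20 was listed at 0 in all. The 10 macrophage markers summed to 4932 to 7298 FPKM in the KO-labelled libraries and 6371 to 7593 FPKM in Atg5 WT libraries. The complement genes C1qa, C1qb and C1qc made up most of that sum, with differences of -0.43, -0.35 and -0.48 (limma unadjusted p = 0.0315, 0.0335 and 0.0518, adjusted p = 0.999 each). Itgam, which encodes CD11b, had 290 to 349 FPKM in the KO-labelled libraries and 243 to 269 FPKM in Atg5 WT libraries, without overlap (difference 0.34 ± 0.10, limma unadjusted p = 0.00556, adjusted p = 0.999). Csf1r and Adgre1 (F4/80) had differences of -0.02 ± 0.09 and 0.01 ± 0.17. In limma, 1 of 9 tested monocyte, 2 of 6 neutrophil and 1 of 5 fibroblast markers were higher at an unadjusted p under 0.05. None of these was lower, while 1 of 6 tested conventional dendritic cell markers was lower and 0 were higher. Of 4 plasmacytoid and 2 epithelial markers tested, 0 passed. Over all genes 1.20% were higher and 0.826% lower at that threshold. With the block, 3 of 9 monocyte, 4 of 6 neutrophil and 4 of 5 fibroblast markers were higher (5.19% of all genes). None of these was lower. There 2 of 6 conventional dendritic cell markers were lower (3.62% of all genes) and 0 higher. Of 10 macrophage markers, 2 were lower and 1 higher without the block, and 3 and 1 with it. No marker passed adjustment in either of these limma fits. In voom with the block, the monocyte marker Vcan and the fibroblast markers Col3a1 and Col1a2 did.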

How the data were processed

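RNA was measured by sequencing in 8 libraries of sorted tumor macrophages. The RNA was purified on Zymo columns and sequenced from NEBNext Ultra libraries, per the labels' protocols. CASAVA, STAR and mm10 are named in the submitters' processing notes, with no versions. Not given in the sources used here are the counting tool, its strand setting and its treatment of shared reads. Exons of 12 members overlap another annotated gene (GENCODE M21), so their reads may include that gene's. Members with close relatives (Oas1a, Ifit3, Mx1, Trim30a) may likewise share reads with those.

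The authors deposited 1 table of FPKM values, scaled by gene length and by each library's total. Multiplied by length, 100% of the values were whole fragments within 0.01, which gave the depth. FPKM is relative, so it does not measure RNA per cell. Every pair of libraries differed by more than sampling noise (lowest chi-square per degree of freedom 9.18).

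Values were compared as log2(FPKM + 1), a scale that understates the change of low genes, with limma 3.58.1 in R 4.3.3. The model used a mean-variance trend, was two-sided, and covered the 11019 genes with a mean of at least 1 FPKM, with Benjamini-Hochberg adjustment over all of them. Adjusted p values are limma's. P values weigh the group difference against the spread between mice of a group. With the block, that spread is what is left once mouse number is in the model. Differences are KO-labelled minus Atg5 WT. Same-numbered libraries of the groups deviated together over genes (correlations of 0.841, 0.208, 0.458 and 0.471 for mice 1 to 4, each over 0.1). The fit reported here does not pair them, and a fit with the number as a block was run as an alternative. The labels name separate mice and give no pairing, and the shift of both mouse 1 libraries contributes to these correlations. Libraries of different numbers also correlated above 0.1 in 5 of 12 combinations, the highest at 0.686 (KO-labelled mouse 3 with Atg5 WT mouse 4, above 0.458 with mouse 3). The fit with the number as a block is given beside counts that it moves.

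The 36 genes, their 7 roles, the other lists and the markers were chosen with earlier results of these data known. For each role, values in all 8 libraries are given for the 2 members with the smallest p and the member with the highest level; of other lists up to 4 genes with the smallest p are named. Values of Isg15, Ifit1, Rsad2, Cmpk2, Mx1 and Ifnb1 were added after they were seen. Alternatives were voom on the recovered fragments, another pseudocount, other filters, median-of-ratios and TPM scaling, the block, and leaving out libraries. The test was checked on simulated data with 200 changed genes. No simulated library was made to stand apart, as some real ones did, so the check gives no error rates for these data.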

Additional observations from a re-analysis of the deposited data

Results flagged for a closer look

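The 55 genes screened were those of the list and some named beside it, and did not include all of the cell type markers. Within groups of 4 for each gene, 1 library far from the other 3 was looked for, which makes 110 groups. In 7 of them the gap from the farthest library to its neighbour took up more of the range than Dixon's limit allows at 95%, and chance gives about 1 in 20 such groups. Usp18 was high in KO-labelled mouse 1, at 10.6 FPKM against 7.84 to 8.12 in the other KO-labelled libraries, a gap of 0.899 of the range. Bst2 was low in KO-labelled mouse 2, at 145 FPKM against 157 to 158 in the others, a gap of 0.885 of the range. Cmpk2 was high in Atg5 WT mouse 2, at 23.9 FPKM against 7.88 to 10.1 in the other Atg5 WT libraries, a gap of 0.862 of the range. Isg20 was high in Atg5 WT mouse 4, at 5.72 FPKM against 5.01 to 5.13, a gap of 0.832 of the range. Atg5 WT mouse 1 was high for 3 genes outside the list. Atg5 had 6.73 FPKM there against 3.50 to 3.93 in the other Atg5 WT libraries (0.867 of the range). Gbp9 had 22.5 FPKM against 16.5 to 17.3 (0.865 of the range). Ifi47 had 63.3 FPKM against 37.5 to 41.7 (0.839 of the range).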

How the results depend on the processing

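No member passed an adjusted p of 0.05 in limma under any setting tried, and the smallest adjusted p of a member was 0.420, with voom and the replicate block. Over all genes, where the fit reported here called 0, the replicate block called 1 gene and voom with the replicate block called 8, none a member. The 8 were Slpi, Vcan, Fstl1, Col3a1, Fbn1, Col1a2, Atg5 and Lyz2, of which Vcan is a monocyte marker and Col3a1 and Col1a2 are fibroblast markers used above. Median-of-ratios scaling called 1, leaving out both mouse 1 libraries called 1, and leaving out single libraries called 0 to 1, the 1 being without Atg5 WT mouse 1. That single gene was Atg5 in each case. Members higher at an unadjusted p under 0.05 numbered 0 in the fit reported here, 1 with the replicate block (Samd9l), 2 with voom and the replicate block (Samd9l and Ifi44), and 0 to 1 with single libraries left out. The 1 was Oas2 without KO-labelled mouse 4 and Samd9l without Atg5 WT mouse 1 (limma unadjusted p = 0.0382). The members' median difference, 0.03, ranged from -0.03 to 0.13 with single libraries left out. It was 0.00 with median-of-ratios scaling and 0.07 with TPM scaling, which moved the median of all genes to 0.07 as well. Between 0 and 10 members changed the sign of their difference in a setting, none of them called in either. The cause of these shifts was not tested. With 4 mice a group, the 95% intervals leave room for differences of over 1.5-fold in 6 members on the log2(FPKM + 1) scale, 9 with a pseudocount of 0.1 and 11 with voom, and of over 2-fold in Ifi44 under the last 2 settings.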
